A study of Mus musculus with 10 samples.

Results

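Gene expression was compared between embryoid bodies (EBs) that lack Strap and wild-type (WT) EBs, both 9 days old. An EB is an aggregate of embryonic stem cells (ESCs) that differentiates in suspension. The comparison used 4 of the 10 libraries of the series, named after their labels as WT-1, WT-2, KO-1 and KO-2. It covered every row of the expression table with enough signal, which was 15160 of 46955 rows. The other 6 libraries were 1 WT ESC library, 1 Strap knockout (KO) ESC library, 2 libraries of WT embryos at E8.0 and 2 at E9.0.

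All EBs carry the strain label C57BL/6. They were grown without the cytokine LIF and then for 5 days in N2B27, a serum-free medium that favours neural fates, with 10 ng/ml of basic fibroblast growth factor. According to the study's methods, the Strap allele was cut with zinc finger nucleases in V6.5 ESCs, mice were bred from them, and WT and Strap-null ESC lines were derived anew from blastocysts of heterozygous parents. Which line gave which EB library is not stated, so genotype and cell line cannot be told apart here. Nor is it stated whether the libraries that share a number were grown together. Their column names begin with Lin for WT-1 and KO-1 and with LJ for WT-2 and KO-2. What these names mark is not given.

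STRAP (serine/threonine kinase receptor-associated protein) is a WD40-repeat protein. It binds TGF-beta receptors together with SMAD7 and sits in the SMN complex, which loads Sm proteins onto spliceosomal snRNAs. EBs left to differentiate form cells of all germ layers, beating cardiac muscle among them, while an outer endoderm lays down a basement membrane of laminin and type IV collagen. The comparison asks which of these programs stand at another level when Strap is missing.

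Short stretches of DNA and RNA from RefSeq (build GRCm38.p6) show letters found in a minority of the genes of some groups below, and the mature form of some microRNAs. The first set comes from promoters of cardiac sarcomere genes that were lower in KO EBs, and its capitals mark the M-CAT motif CATTCC, a site for TEAD factors in muscle promoters. The Myh6 match is on the opposite strand and reads GGAATG.

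Tnnt2, chr1:135836287-135836332: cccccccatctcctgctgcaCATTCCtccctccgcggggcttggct
Myl7, chr11:5898827-5898872: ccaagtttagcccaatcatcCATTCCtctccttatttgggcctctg
Myh6, chr14:54966788-54966833: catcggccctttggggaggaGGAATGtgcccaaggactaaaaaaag

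The second set comes from stress genes that were higher in KO EBs or lay in the same list. Its capitals mark TTGCATCA, the C/EBP-ATF response element that ATF4 binds in amino acid and stress genes.

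Nupr1, chr7:126625553-126625600: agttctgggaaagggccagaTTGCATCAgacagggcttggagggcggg
Chac1, chr2:119351029-119351076: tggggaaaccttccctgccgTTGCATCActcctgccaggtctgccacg
Atf3, chr1:191183416-191183463: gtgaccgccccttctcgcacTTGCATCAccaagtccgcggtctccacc

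The third set comes from genes of the endoplasmic reticulum (ER). Its capitals mark the ER stress response element, CCAAT and CCACG with 9 bases between them, which ATF6 and NF-Y read, and in Creld2 and Derl3 the match is on the opposite strand.

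Hspa5, chr2:34772005-34772063: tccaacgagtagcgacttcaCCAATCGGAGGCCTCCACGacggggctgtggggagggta
Creld2, chr15:88819500-88819558: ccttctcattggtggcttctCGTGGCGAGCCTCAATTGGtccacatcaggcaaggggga
Derl3, chr10:75893222-75893280: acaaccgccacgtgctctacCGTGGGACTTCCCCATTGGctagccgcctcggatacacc

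The fourth set gives mature microRNAs, with bases 2 to 8, the seed that pairs with targets, in capitals. By the rule given below, the hairpin locus Mir210 was called lower in KO EBs. Mir294 and Mir295 share a row that was not called, and its reads cannot be divided between them. The ESC microRNAs miR-294-3p and miR-295-3p share the seed AAGUGCU.

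miR-294-3p: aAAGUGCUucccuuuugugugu
miR-295-3p: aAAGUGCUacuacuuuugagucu
miR-210-3p: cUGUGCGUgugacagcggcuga

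All promoters were searched in windows of 300 bases, from 250 before the start of a gene to 50 after it, on both strands. The M-CAT letters occurred in 9 of 22 cardiac sarcomere genes with a promoter sequence (40.9%) and in 16.6% of 27025 genes. The C/EBP-ATF letters occurred in 5 of 29 genes of the integrated stress response list (17.2%) and in 1.03% of all genes. The ER stress letters occurred in 8 of 20 genes of the ER list (40%) and in 0.137% of all genes. Matches of different motifs overlapped in 0 genes. A match of letters describes the window and no more.

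Expression is in FPKM, fragments per length of transcript and per mapped fragment in a library, on a fixed scale, and each change is a difference of mean log2(FPKM + 1), KO minus WT, from limma. A row is called at a Benjamini-Hochberg adjusted p under 0.05. By that rule 21 of 15160 rows (0.139%) were called, 3 of them higher in KO EBs (0.0198%) and 18 lower (0.119%). Of the 21 rows, 9 were named protein-coding genes, all lower, and 9 were loci shorter than 300 bases. Each of those short loci was listed at 0 in all embryo libraries and in either the WT or the KO EBs. They entered the test only through the other EB group. Listed zeros carry no spread, so the adjusted p of these loci is too small to be taken as given. The unadjusted p was under 0.05 in 2094 rows. A looser rule used the thresholds of the study, unadjusted p under 0.01 with an absolute log2 change over 1, on the same limma values. It took 323 rows (2.13%), of which 136 (0.897%) were higher and 187 (1.23%) lower, and in all 323 the WT and KO libraries did not overlap. With so few libraries these thresholds nearly force that separation, so for the rows chosen by them it adds no support. No overlap between the groups was found in 46.7% of all rows tested, 25.8% higher in KO and 20.9% lower.

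These totals depended on the libraries and on the scale. With the 4 EB libraries alone 2 rows were called, both higher in KO, and 1 of them was among the 21. None of the 18 lower rows, and so none of the 9 named genes, was called there. Between 8 and 18 rows were called with 1 EB library left out. Of the named genes called, Grb10 kept an adjusted p under 0.05 in 3 of 4 such fits and Isl1 and Tnnt2 in 1 each, while Strap, Tnni1, Mef2c, Has2, Asb4 and Kdr did so in 0; Grb10, Isl1, Tnnt2, Tnni1, Mef2c, Has2, Asb4 and Kdr were past the study's thresholds in all 4. At the study's thresholds the split was 49 higher and 94 lower without WT-1, 251 and 202 without WT-2, 133 and 330 without KO-1, and 113 and 85 without KO-2. The share of higher rows was 42.1% as deposited, 27.4% with a pseudocount of 0.1, and 15.1% after each library was rescaled to its FPKM outside rRNA-like, mitochondrial and short loci. That rescaling moved the median of all rows from 0.01 to -0.19, so the smaller list medians below have to be read against that shift. The rRNA-like share of FPKM was 15.02% in WT-1, 0.823% in WT-2, 4.79% in KO-1 and 1.71% in KO-2, and the mitochondrial share was 5.70% and 6.62% in WT against 3.41% and 3.52% in KO. What these shares contribute to the changes was not tested beyond the rescaling.

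**Figure D1:**
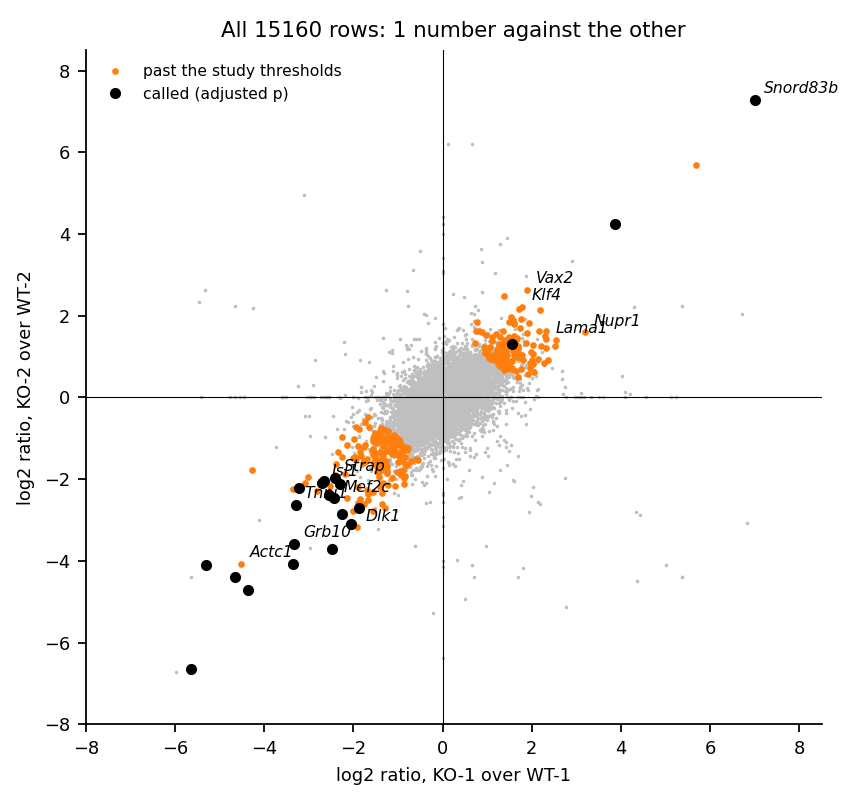
Each point is 1 of 15160 rows, with the log2 ratio of KO-1 over WT-1 on the x axis and of KO-2 over WT-2 on the y axis, both of FPKM + 1. Black points are the 21 called rows and orange points the other rows past the study's thresholds; Strap, Grb10 and the muscle genes lie at the lower left and Klf4, Vax2 and Lama1 at the upper right.

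Strap (ENSMUSG00000030224.10, GRCm38 chromosome 6, 137735078 to 137751932) was at 49.7 FPKM in WT-1 and 47.2 in WT-2, against 8.48 in KO-1 and 11.3 in KO-2. Strap therefore fell by 2.19 on the log2 scale (SE 0.228, adjusted p = 0.0191), and 20.5% of the mean WT level was left in KO EBs. With the 4 EB libraries alone the adjusted p was 0.228, and it lay between 0.0898 and 0.298 with 1 EB library left out. The transcript signal was thus reduced but not at 0 in both KO libraries. Within 2 Mb of Strap 13 rows were tested, of which 0 were called, and their median log2 change was -0.19. Past the study's thresholds in that window were H2afj, a histone H2A variant, at 1.71 and Mgst1, a microsomal glutathione transferase, at -1.05.

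Cardiac muscle transcripts had the lowest median of the 57 gene lists on the log2(FPKM + 1) scale, though with a pseudocount of 0.1 heart transcription factors lay lower, at -2.04. Tnni1, the slow skeletal troponin I that the embryonic heart also uses (ENSMUSG00000026418.16, chromosome 1, 135779434 to 135810989), was at 23.3 and 17.5 FPKM in WT and at 1.47 and 2.00 in KO. Tnni1 fell by 2.96 (SE 0.288, adjusted p = 0.0147), which left 8.51% of the WT mean. Tnnt2, cardiac troponin T (ENSMUSG00000026414.13, chromosome 1, 135836354 to 135852260), was at 20.5 and 10.6 FPKM in WT and at 1.30 and 1.51 in KO. Tnnt2 fell by 2.72 (SE 0.298, adjusted p = 0.0241), and its lower WT library was still far above both KO libraries.

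Of 26 genes in the cardiac sarcomere list 23 were tested. Of these, 2 were called and 9 were past the study's lower threshold, 22 had a negative log2 change and the median was -1.26. Over all rows the median was 0.01 and 51.6% were positive. The 9 sarcomere genes with the M-CAT letters had a median of -1.70, against -0.83 for the other members with a promoter sequence. What the letters contribute to that difference was not tested. Myl7, the atrial myosin light chain, was at 21.6 and 10.4 FPKM in WT and at 1.65 and 1.64 in KO, a log2 difference of -2.60 (SE 0.399, adjusted p = 0.0907). Ttn, the giant sarcomere protein titin, was at 17.3 and 5.37 FPKM in WT and at 0.782 and 0.356 in KO. Myh6, the alpha myosin heavy chain, was at 20.1 and 3.87 in WT and at 0.0956 and 0.426 in KO. In each of these genes WT-1 was the highest library and WT-2 came next, so the groups did not overlap although WT-1 and WT-2 lay far apart. Actc1, Myl4, Nebl and Myom1 completed the set past the study's thresholds. The list median was -0.93 without WT-1 and -1.78 without WT-2, and 7 members were past the lower threshold without WT-1 or without KO-2.

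The median FPKM of the tested sarcomere genes was 16.6 in WT-1 and 5.37 in WT-2, but 1.47 in KO-1 and 1.34 in KO-2. It was between 25.3 and 28.6 in the 4 embryo libraries and 0.618 and 0.487 in WT and KO ESCs, so that the KO EBs lay nearer to the ESCs than to the WT EBs. In bulk RNA, fewer cells of a type and less RNA per cell cannot be told apart, here or in the groups that follow. Summed FPKM of 5 cardiac markers was 142 and 45.6 in WT and 6.06 and 4.38 in KO.

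Among regulators of heart formation, Mef2c and Isl1 were called. Mef2c, a MADS-box factor that acts on muscle promoters (ENSMUSG00000005583.16, chromosome 13, 83504034 to 83667080), was at 5.54 and 4.89 FPKM in WT and at 0.215 and 0.0634 in KO. Mef2c fell by 2.45 (SE 0.220, adjusted p = 0.0109), and its WT libraries differed little. Isl1, a LIM-homeodomain factor of second heart field progenitors and of motor neurons (ENSMUSG00000042258.13, chromosome 13, 116298281 to 116309689), was at 9.73 and 5.97 FPKM in WT and at 0.657 and 0.637 in KO. Isl1 fell by 2.39 (SE 0.252, adjusted p = 0.0192).

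Of 19 heart transcription factors tested, 2 were called, 7 were past the study's lower threshold and the median was -0.72. The lower count was 5 without WT-1, 4 without WT-2, 6 without KO-1 and 3 without KO-2, and the median ran from -2.04 with a pseudocount of 0.1 to -0.48 under quantile normalization. Hand1 and Hand2, basic helix-loop-helix factors of the ventricles and outflow tract, had log2 differences of -1.998 and -1.84. Tbx20, a T-box factor, was at -1.69, and Myocd and Smyd1, coactivator and methyltransferase of the muscle program, were at -1.63 and -1.62. The cardiac and endodermal factors of the GATA family did not follow them. Gata4 was at 18.6 and 31.8 FPKM in WT and at 37.1 and 32.8 in KO (log2 difference 0.50, unadjusted p = 0.235), and Gata6 was at 5.92 and 9.76 in WT and at 14.6 and 12.0 in KO (log2 difference 0.72, adjusted p = 0.357). Nkx2-5 was near the detection range in all EBs, at 0.877 and 1.35 FPKM in WT and 0.494 and 0.597 in KO.

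**Figure D2:**
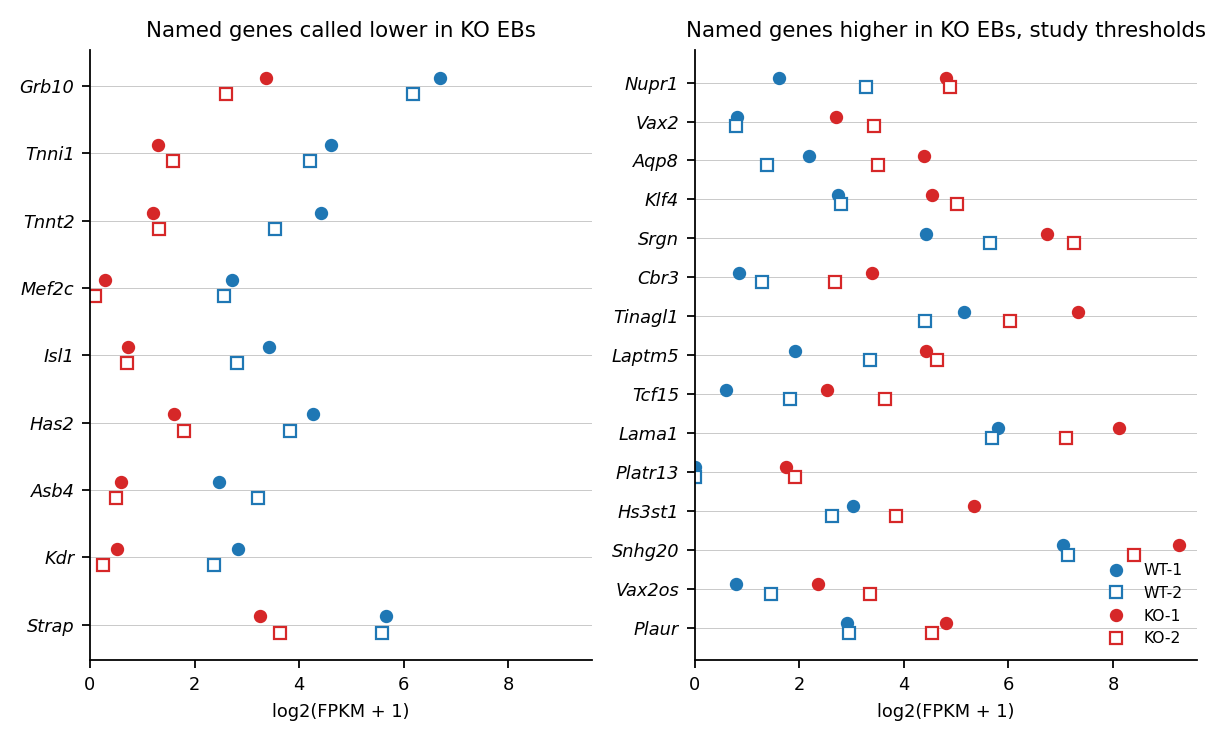
Levels of the named genes in the 4 EB libraries, on a log2(FPKM + 1) axis, with WT in blue, KO in red, filled circles for libraries numbered 1 and open squares for those numbered 2. Left, the 9 named genes that were called, all lower in KO; right, the 15 highest named rows past the study's thresholds, none of which was called.

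Among endothelial genes, Kdr was called. Kdr, the VEGF receptor that marks endothelium and early cardiac mesoderm (ENSMUSG00000062960.10, chromosome 5, 75932827 to 75978458), was at 6.07 and 4.16 FPKM in WT and at 0.428 and 0.190 in KO. Kdr fell by 2.21 (SE 0.227, adjusted p = 0.0191). The row that joins Nrp1, a VEGF and semaphorin coreceptor, with a microRNA inside it was at 8.24 and 10.9 FPKM in WT and at 1.22 and 0.391 in KO, a called log2 change of -2.58 (adjusted p = 0.0268). Cdh5, the cadherin of endothelial junctions, had a log2 difference of -1.71 and Tie1, an endothelial tyrosine kinase, of -1.12, both past the study's thresholds only. Of 23 endothelial genes tested, 1 was called, 3 were past the lower threshold and 1 past the upper, with a median of -0.47. The lower count was 5 without WT-2 and 2 with any other EB library left out. The upper one was Sox7, a factor shared by endothelium and primitive endoderm, at 2.68 and 3.20 FPKM in WT and 10.5 and 10.1 in KO (log2 difference 1.53). Pecam1 and Tek, which ESCs in this series also carried, had log2 differences of -0.08 and 0.13.

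Of the matrix genes described here, Has2 was the one called. Has2, the main hyaluronan synthase of the embryo, which the endocardial cushions need (ENSMUSG00000022367.7, chromosome 15, 56665627 to 56694539), was at 18.2 and 13.2 FPKM in WT and at 2.05 and 2.46 in KO. Has2 fell by 2.35 (SE 0.228, adjusted p = 0.0147). Of 26 interstitial matrix genes tested, 0 were called, 7 were past the study's lower threshold and 1 (Sparc) past the upper, 24 had a negative log2 change and the median was -0.65. Vcan, the proteoglycan that binds hyaluronan, was at 86.2 and 28.4 FPKM in WT and at 14.1 and 5.51 in KO. Fbn2 and Fbn1, the fibrillins, had log2 differences of -2.24 and -1.25, and Col5a1, Tnc, Bgn and Col6a3 lay between -1.71 and -1.26. Without WT-1, 1 member of this list was past the lower threshold, and without KO-2 it was 2.

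Some basement membrane genes had positive differences, although the list as a whole did not. Lama1, the alpha chain of laminin-111 (chromosome 17, 67697259 to 67822647), was at 54.6 and 50.3 FPKM in WT and at 277 and 137 in KO, a log2 difference of 1.87 (SE 0.299, adjusted p = 0.103). Its partner chains Lamb1 and Lamc1 were at 134 and 104 against 398 and 194 FPKM, and at 85.7 and 94.0 against 302 and 178. Col4a2, a type IV collagen chain, was at 79.5 and 46.1 against 293 and 117, and Nid1, which links laminin to collagen, at 24.2 and 22.1 against 71.8 and 42.0. In all of these genes both KO libraries were above both WT libraries, and KO-1 was the highest. Mean FPKM was 3.95 times the WT level for Lama1, 2.49 for Lamb1, 2.68 for Lamc1, 3.27 for Col4a2 and 2.46 for Nid1.

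Col4a1, the other chain of that collagen, had a log2 difference of 1.55 with unadjusted p = 0.0102 and missed the threshold. Over the 25 basement membrane genes tested, 5 were past the upper and 2 past the lower threshold, 0 were called and the median was 0.03. The 2 lower ones were Lama4, a laminin chain of vessels and muscle (2.95 and 2.86 FPKM in WT, 0.517 and 0.872 in KO), and Frem1, a matrix protein of epithelial folds (14.0 and 5.91 in WT, 1.12 and 0.409 in KO). After the rescaling 2 rather than 5 members were past the upper threshold, and without KO-1 it was 1.

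Parietal endoderm cells secrete Reichert's membrane in the rodent embryo. Of 15 parietal endoderm genes, 5 were past the upper threshold and 0 past the lower. A positive log2 change was found in 10 and a negative one in 5, with a median of 0.65. The upper count was 3 without WT-1 or after the rescaling, 2 without WT-2 or KO-1, and 7 without KO-2, where the median was 1.57. Median FPKM of the list was 15.6 in WT-1, 8.37 in WT-2, 21.9 in KO-1 and 7.93 in KO-2. On that measure the groups overlapped, with KO-1 the highest library and KO-2 the lowest. Col4a1, Col4a2 and Lamb1 are in both lists. Sparc, a collagen-binding glycoprotein, was at 249 and 223 FPKM in WT and at 756 and 463 in KO, and its log2 difference was 1.32. Srgn, the core protein serglycin, was at 20.3 and 48.8 against 105 and 152 FPKM (log2 difference 1.97). Snai1, a zinc finger repressor of E-cadherin, was at 2.05 and 1.73 against 8.86 and 5.58 (log2 difference 1.48). Outside these lists, Tinagl1, a laminin-binding matrix protein, was at 34.4 and 20.03 against 159 and 64.5 FPKM, and Plaur, the urokinase receptor, was at 6.57 and 6.77 against 26.9 and 22.3. Plat, a protease of parietal endoderm, did not differ in that way, at 13.3 and 8.37 FPKM in WT and 11.8 and 5.02 in KO.

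**Figure D3:**
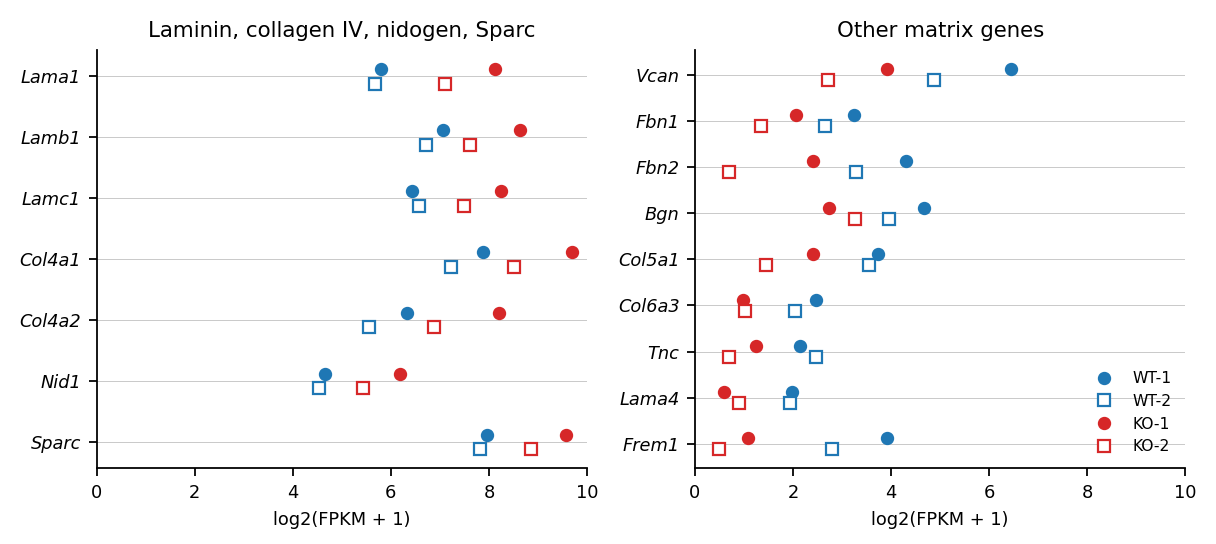
Matrix genes in the 4 EB libraries on a log2(FPKM + 1) axis, symbols as for the named genes. Left, laminin-111 chains, type IV collagen, Nid1 and Sparc, where both KO libraries lie above both WT libraries; right, interstitial matrix genes with Lama4 and Frem1, where both KO libraries lie below.

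Of 27 visceral endoderm and yolk sac genes tested, 0 were past the upper and 2 past the lower threshold, and the median was -0.46. Summed FPKM of 5 markers of these tissues was 194 and 201 in WT and 112 and 212 in KO, so the sums overlapped. Cubn alone held 65.3 of the WT-2 sum and 124 of the KO-2 sum. Afp, Amn and Cubn overlapped between the groups, while Ttr and Apoa1 were lower in both KO libraries. Of the 27 genes, 13 had both KO libraries below both WT libraries and 3 above, against 20.9% and 25.8% of all rows. Gpc3, a glypican that restrains growth, was at 273 and 276 FPKM in WT and at 94.5 and 151 in KO (log2 difference -1.20). Slc13a4, a sulfate transporter of the yolk sac, was at 6.31 and 15.4 against 0.549 and 1.28 (log2 difference -2.54). Lrp2, the uptake receptor megalin, went the other way, at 39.9 and 31.6 in WT and 61.2 and 64.0 in KO (log2 difference 0.80, adjusted p = 0.160).

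Genes of BMP and TGF-beta signalling were partly lower. Of 33 tested, 0 were called, 7 were past the lower and 0 past the upper threshold, 23 had a negative log2 change and the median was -0.48. Among ligands, Bmp5 was at 3.22 and 1.92 FPKM in WT and at 0.0507 and 0.0498 in KO, Bmp4 at 8.61 and 8.67 against 3.98 and 1.78, and Tgfb2 at 6.95 and 6.57 against 1.48 and 0.329. Among targets, Id1, an inhibitor of helix-loop-helix factors that BMP induces, was at 57.8 and 55.2 against 25.4 and 23.4 FPKM, a log2 difference of -1.18 (SE 0.227, adjusted p = 0.150). Id2, Msx1 and Tgfbi, also induced by these ligands, had log2 differences of -1.23, -1.004 and -1.48. The WT levels of Bmp4, Tgfb2 and Id1 differed little between WT-1 and WT-2. The lower count was 3 without WT-1, WT-2 or KO-2 and 8 without KO-1, and without WT-2 there were 2 members past the upper threshold.

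Of 24 mesenchyme and neural crest factors tested, 6 were past the lower threshold, among them Twist2 (-1.56), Prrx1 (-1.23) and Snai2 (-1.37) in log2 difference, and the median was -0.64. Without WT-1 or without KO-2, 1 member was past the lower threshold. The 2 members past the upper threshold were Snai1, given above, and Tcf15, a factor of paraxial mesoderm and of epiblast cells leaving pluripotency, at 0.525 and 2.54 FPKM in WT and 4.81 and 11.5 in KO. Feeder fibroblasts, on which the parent ESC lines are grown, carry matrix and mesenchyme genes too. Of 15 feeder fibroblast genes tested, 1 was past the lower threshold and the median was -0.74. The summed FPKM of 6 fibroblast markers was 231 and 51.3 in WT and 24.0 and 24.1 in KO, and the row of Col3a1 alone held 198 and 30.2 of the WT sums. Col1a1, which was at 164 and 149 FPKM in the ESC libraries, was at 8.03 and 8.32 in WT, against 5.76 and 6.18 in KO. The part of such cells in the matrix result was not tested.

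Imprinted growth regulators held the largest decrease of a named gene that was called. Grb10, an adaptor that restrains insulin and IGF receptors (ENSMUSG00000020176.17, chromosome 11, 11930508 to 12038683), was at 103 and 71.7 FPKM in WT and at 9.34 and 5.06 in KO. Grb10 fell by 3.45 (SE 0.282, adjusted p = 0.00694), and 8.26% of the WT mean was left. Asb4, a maternally expressed ubiquitin ligase subunit of vessels and heart (ENSMUSG00000042607.15, chromosome 6, 5383386 to 5433022), was at 4.51 and 8.23 FPKM in WT and at 0.510 and 0.417 in KO. Asb4 fell by 2.29 (SE 0.285, adjusted p = 0.0495). In both genes the groups were well apart, and the embryos lay higher still.

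Of 35 imprinted genes tested outside the Dlk1-Meg3 cluster, 2 were called, 5 were past the lower and 0 past the upper threshold, 29 had a negative log2 change and the median was -0.64. The lower count was 13 without KO-1 and 10 after the rescaling, and the median ran from -0.88 without KO-1 to -0.34 without KO-2. The row of H19, a maternally expressed noncoding RNA, was at 933 and 666 FPKM in WT and at 211 and 120 in KO (log2 difference -2.30, adjusted p = 0.0550). Zim1 and Usp29, of the Peg3 domain, had log2 differences of -2.01 and -1.61. Igf2, the growth factor gene next to H19, was at 234 and 89.0 against 118 and 33.3 FPKM, so its groups overlapped. Dlk1, a paternally expressed Notch-like ligand, was at 93.2 and 140 against 23.9 and 14.5 FPKM (log2 difference -2.55, adjusted p = 0.0503), at the edge of the threshold. Its cluster as a whole was mixed, with 2 of 6 tested members positive and 4 negative. The cluster median was -0.40, from -0.99 without WT-1 to 0.04 without KO-2. Of 18 genes of the IGF axis, 16 had a negative log2 change, with a median of -0.54, and Igfbp4, an IGF carrier, was at 43.8 and 38.2 against 20.1 and 19.8 FPKM (log2 difference -1.001).

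Neural progenitor genes, of the fate the medium favours, overlapped between the groups in most cases. Sox1, a marker of committed neuroectoderm, was at 8.57 and 2.35 FPKM in WT and at 9.33 and 1.19 in KO. Pax6, a factor of neural progenitors, was at 8.37 and 3.93 against 5.75 and 1.07, and Nes, their intermediate filament, at 11.8 and 6.60 against 12.0 and 5.35. For all of these the libraries numbered 1 were above those numbered 2 in both genotypes, and the groups overlapped. Of 28 neural progenitor genes tested, 0 were past either threshold and 0 were called. Without KO-1, 5 were past the lower threshold. Their median was -0.41, from -1.12 without KO-1 to 0.22 without KO-2, so the direction rested on KO-2. The smallest p that an exact permutation of 2 against 2 libraries allows is 0.333.

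Early neuron genes had a lower median, -0.68 over 28 tested, with 1 called (Isl1), 3 past the lower and 1 past the upper threshold. The lower count was 1 without WT-1 or KO-2, and 6 without WT-2. Gap43, a growth cone protein, was at 9.13 and 3.00 FPKM in WT and 1.80 and 0.574 in KO, and Elavl4, a neuronal RNA-binding protein, at 5.17 and 3.58 against 0.837 and 0.561. Stmn2, a tubulin-binding protein of neurites, was at 17.4 and 17.0 against 41.0 and 51.5 (log2 difference 1.37), and at 61.3 and 44.2 in the ESC libraries. Vax2, a homeobox factor of the ventral eye, was at 0.751 and 0.726 FPKM in WT and at 5.53 and 9.76 in KO, a log2 difference of 2.27 (SE 0.291, adjusted p = 0.0503). Its overlapping antisense partner Vax2os was at 0.732 and 1.74 against 4.16 and 9.19, so both strands of the locus were higher in both KO libraries. The other eye and forebrain genes did not follow, with a median of -0.09 over the 23 tested and Vax2 alone past a threshold.

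Most pluripotency genes had a positive log2 difference, and 0 were called. Klf4, a reprogramming factor of naive ESCs (chromosome 4, 55527143 to 55532466), was at 5.71 and 5.97 FPKM in WT and at 22.1 and 31.4 in KO, a log2 difference of 2.00 (SE 0.334, adjusted p = 0.12005). Of 26 core and naive pluripotency genes tested, 5 were past the upper and 0 past the lower threshold, and 23 had a positive log2 change, with a median of 0.67. The 5 were Klf4, the row of Tfcp2l1, Tbx3, Dppa5a and Fgf4. Fgf4, a growth factor made by pluripotent cells, was at 18.1 and 44.3 FPKM in WT and at 76.3 and 93.8 in KO. Nanog overlapped between the groups, at 59.2 and 112 against 108 and 157, and WT-1 was the lowest library in 24 of the 26 members. The median was 0.16 without WT-1 and 1.21 without WT-2. The upper count was 1 without WT-1, without KO-2 or after the rescaling, 2 without KO-1 and 9 without WT-2. The row of the ESC microRNA genes Mir294 and Mir295, whose seeds are printed above, was at 5.81 and 7.79 FPKM in WT and 17.2 and 19.3 in KO (log2 difference 1.31), and at 0 in all embryo libraries.

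**Figure D4:**
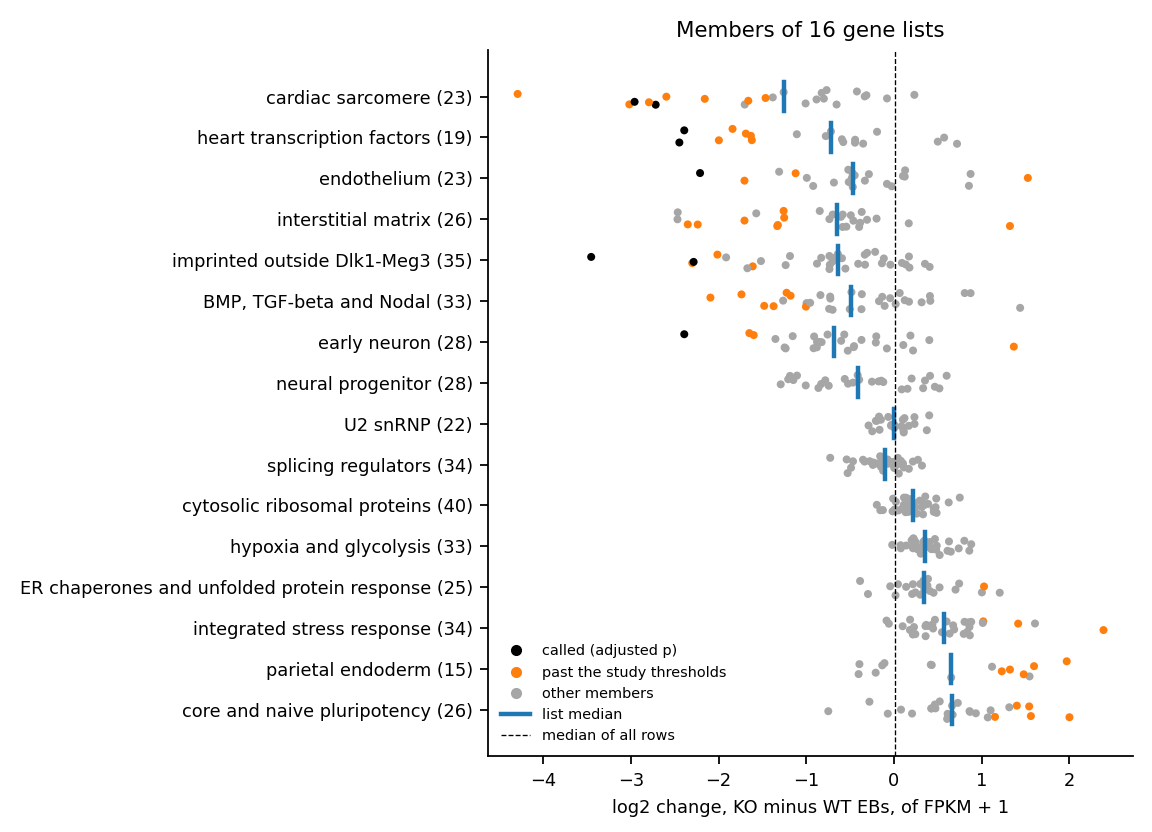
Log2 change, KO minus WT EBs, of FPKM + 1 for every tested member of 16 gene lists, with the number of tested members in brackets. Black points are called, orange points are past the study's thresholds, blue bars are list medians (-1.26 for cardiac sarcomere, 0.67 for pluripotency) and the dashed line is the median of all rows.

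Most stress genes had small positive log2 differences, and 0 were called. The integrated stress response slows translation through eIF2 alpha phosphorylation and raises the factor ATF4. Atf4 itself was at 78.2 and 77.6 FPKM in WT and at 122 and 128 in KO, a log2 difference of 0.68 (SE 0.127, adjusted p = 0.146). Nupr1, a stress-induced chromatin protein and ATF4 target, was at 2.06 and 8.74 against 26.8 and 28.5, a log2 difference of 2.39 (SE 0.489, adjusted p = 0.167). Cth, the cystathionine lyase of cysteine synthesis, was at 12.3 and 10.9 against 44.9 and 23.6, and Chac1, which degrades glutathione, at 3.62 and 4.21 against 7.98 and 10.0. Of 34 members tested 3 were past the upper threshold, or 1 without WT-2 or KO-1, while 32 had a positive log2 change and 28 had both KO libraries above both WT libraries, against 25.8% of all rows. The median was 0.57, and 0.33 after the rescaling.

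The 5 members with the C/EBP-ATF letters in their promoter had a median of 0.37, against 0.64 for the other members with a promoter sequence. Nupr1 and Chac1 had log2 differences of 2.39 and 1.02, whereas Atf3, an ATF4-induced repressor, was at 0.37, Pycr1, of proline synthesis, at 0.18 and Vldlr, a lipoprotein receptor, at 0.22.

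The ER list gave 22 of 25 positive log2 changes, 1 past the upper threshold and a median of 0.35, or 0.11 after the rescaling. Hspa5, the ER chaperone BiP, was at 166 and 182 FPKM in WT and at 255 and 316 in KO (log2 difference 0.70). Creld2, a secreted ER stress protein, was at 13.03 and 23.6 against 32.2 and 42.3 (1.03), and Derl3, of ER-associated degradation, at 2.12 and 3.70 against 5.41 and 11.2 (1.21). The 8 members with the ER stress letters had a median of 0.43 and the members without them 0.32. Cytosolic heat shock genes were level, with 7 of 14 positive and a median of 0.03.

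**Figure D5:**
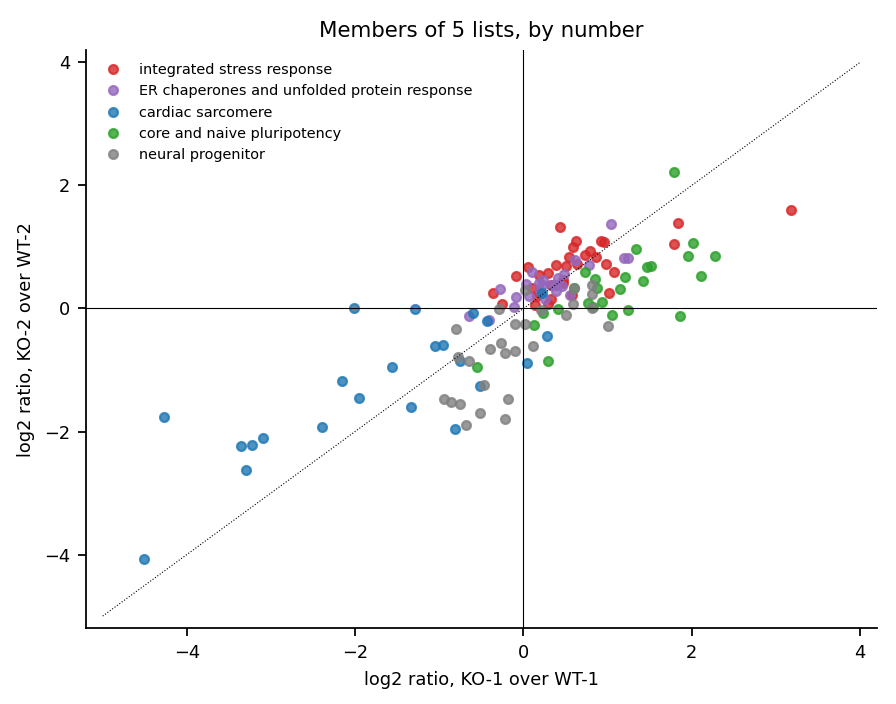
Log2 ratio of KO-1 over WT-1 (x axis) and of KO-2 over WT-2 (y axis) for the tested members of 5 gene lists, with a dotted line of equality. Most integrated stress response and ER genes lie at the upper right, cardiac sarcomere genes in the lower left, and neural progenitor genes spread to lower values on the y axis than on the x axis.

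Related lists had shifts of similar size with few or no members past a threshold. Of 26 p53 targets, 21 were positive with a median of 0.31 and 0 past a threshold; Cdkn1a, the cell cycle inhibitor p21, was at 62.9 and 54.4 FPKM in WT and 88.5 and 83.5 in KO. Of 33 hypoxia and glycolysis genes 32 were positive, with a median of 0.35 and 0 past a threshold, or 0.11 after the rescaling. Of 21 NRF2 targets 18 were positive, with a median of 0.32, and 2 were past the upper threshold. The median was 0.04 without WT-1 and 0.62 without WT-2. The 2 were Cbr3, a carbonyl reductase, at 0.803 and 1.45 FPKM in WT and 9.48 and 5.44 in KO, and Me1, malic enzyme, at 10.2 and 15.5 against 21.7 and 36.8. Insig1, a brake on sterol synthesis, was at 49.2 and 41.8 against 115 and 86.2, alone past a threshold among 22 cholesterol genes and short of it without WT-1, WT-2 or KO-1 or after the rescaling. Ribosomal protein genes were positive in 35 of 40 cases with a median of 0.22, which turned to -0.03 under quantile normalization.

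Structural noncoding RNAs and their hosts were found in both directions. Of 79 snRNA rows tested 2 were called, both lower in KO, but 6 were past the upper and 2 past the lower threshold. Of 93 snoRNA rows tested 3 were called, 1 higher (Snord83b) and 2 lower, with 5 past the upper and 2 past the lower threshold. The median log2 change was 0.29 for snRNA and 0.58 for snoRNA rows. Of all rows 0.139% were called, 0.897% were past the upper and 1.23% past the lower threshold. The row 2410006H16Rik, annotated as a processed transcript, was at 144 and 164 FPKM in WT and at 428 and 407 in KO, and rose by 1.44 on the log2 scale (SE 0.131, adjusted p = 0.0109). Of 18 snoRNA host genes tested 3 were past the upper threshold, Snhg20, the row of Snhg15 and Epb41l4aos, and the median was 0.52. Without WT-1 the upper count was 1. Snhg20 was at 131 and 140 FPKM in WT and at 610 and 337 in KO. Rpph1, the RNA of RNase P, was the most abundant row of both KO libraries, at 48288 and 46419 FPKM against 14841 and 21785 in WT (log2 difference 1.40, adjusted p = 0.328). Terc, the telomerase RNA, was at 31.1 and 46.2 against 96.0 and 165. Replication-dependent histone genes, whose messages lack poly(A), were positive in 24 of 25 cases with a median of 0.44, and 0 were past a threshold.

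The loci shorter than 300 bases need care, because FPKM of such a locus rests on few positions and may count reads of a host gene. Those that were called also passed the filter only through the EB libraries of a single genotype. Their adjusted p rests on a spread taken largely from listed zeros, and is given for description only. Snord83b, a snoRNA inside Rpl3 (ENSMUSG00000077734.1, chromosome 15, 80078498 to 80078591), was listed at 0 in both WT EB libraries and at 128 and 155 FPKM in KO. It was also listed at 0 in WT ESCs and at 63.6 in KO ESCs, and at 0 in all embryo libraries (EB adjusted p = 4.96e-05). Its host row, Gm22077,Rpl3, was at 950 and 899 FPKM in WT, against 1094 and 1080 in KO, and reads of the snoRNA and of its host cannot be told apart in these files. Mir210, a hairpin induced by hypoxia (chromosome 7, 141221384 to 141221493), was at 38.6 and 16.1 FPKM in WT and listed at 0 in both KO libraries (adjusted p = 0.00694), and Mir669f, inside Sfmbt2, was listed at 0 in WT and at 13.5 and 18.0 in KO (adjusted p = 0.00108). These values belong to the hairpin loci and not to the mature RNAs.

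Genes of the splicing machinery stayed close to the median of all rows. Of 22 U2 snRNP genes 12 were positive and 10 negative, with a median of 0.00 and 0 past a threshold. Sf3b1, the largest SF3B protein, was at 118 and 120 FPKM in WT and at 96.3 and 104 in KO (log2 difference -0.25, adjusted p = 0.538). Of 34 splicing regulators 0 were past a threshold and the median was -0.10. In the SMN complex list Strap was the one member of 12 that was called, and the median was 0.12. Among genes whose splicing the study followed, Nnat, a neuronal membrane proteolipid, was at 64.8 and 28.8 FPKM in WT and at 25.7 and 12.2 in KO (log2 difference -1.24, adjusted p = 0.287), and the kinase gene Mark3 was at 26.1 and 27.8 against 29.9 and 27.6.

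The genes past the study's thresholds differed from the rest in the other libraries. Of the 187 lower rows 112 had at least 1 FPKM in an ESC library, and of the 136 higher rows 120 did. Among the latter 88 (73.3%) were also higher in KO than in WT ESCs, and among the former 33 (29.5%) were, against 48.6% of all rows with that level. With 1 ESC library per genotype these are values without a test. Embryos were above WT ESCs in 81.8% of the lower rows and in 27.9% of the higher rows, against 51.3% of all. Rows were filtered on EB and embryo libraries and not on ESCs, and embryos shared in the variance. These shares are therefore not independent of how the rows were chosen. The difference between the KO effect in EBs and that in ESCs passed the adjusted threshold in 4 rows of 15160 (0.0264%), all of them short predicted RNA loci, and 756 rows had an unadjusted p under 0.05. That fit assumes that the lone ESC libraries vary as EB libraries do. For Grb10 the log2 KO effect was -3.45 in EBs and -0.59 in ESCs (adjusted p of the difference 0.419), and for Strap it was -2.19 and -2.17.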

How the data were processed

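The authors deposited 1 table of FPKM with 1 column per library. Paired-end reads had been mapped to GRCm38 (STAR 2.5.2b), and Cufflinks 2.2.1 had turned them into abundances. Read totals are not used here, since FPKM gives no depth, and the labels and the methods name different rRNA depletion kits. GENCODE loci of the same build were found for 43671 (95.5%) of 45720 singly named rows, and 1062 rows carry merged names, whose reads cannot be divided.

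A row was tested if 2 or more of the 8 libraries from EBs and embryos reached 1 FPKM. The test was made with limma 3.58.1 (R 4.3.3) on log2(FPKM + 1), a scale that understates changes of low genes. The model held 4 group means, variance moderated with a trend, and 1 weight per material (0.428 for EBs, 2.34 for embryos), because EB libraries of a group lay farther apart (median 0.252 and 0.271 log2) than embryo pools (0.100 and 0.109). Residual degrees of freedom were 4, with 3.36 added by moderation. Two-sided p-values were adjusted over 15160 rows. The study describes the EB libraries of a group as independent biological samples, without saying from which ESC line each came. The contrast with ESCs used all 10 libraries and 6 group means, the ESC libraries having the EB weight.

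The comparison, the 57 gene lists and the tests were chosen with earlier results of these data known. Named genes were Strap, up to 15 called rows in each direction whose groups did not overlap (without merged, predicted, pseudogene or short rows), filled from the study's thresholds where fewer than 10 were called, and the 4 lowest p and all called members of each list discussed. Other genes were named after their values were seen. The pipeline was tested on simulated data. Alternatives are given in the closing section.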

Additional observations from a re-analysis of the deposited data

Results flagged for a closer look

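For 4 loci limma's contrast of the KO effect in EBs with that in ESCs passed the adjusted threshold. With 1 ESC library per genotype, that p assumes that ESC libraries vary as EB libraries do, and each value rests on libraries listed at 0, so it is no evidence of a difference between cell types. Gm26465, a predicted snRNA locus, was at 48.6 and 99.8 FPKM in WT EBs and listed at 0 in KO EBs, while it was listed at 0 in WT ESCs and at 75.2 in KO ESCs (difference -12.39, adjusted p = 0.000528). Gm24967, another predicted snRNA locus, was present in all EB libraries, from 147 to 194 FPKM, and at 123 in WT ESCs but listed at 0 in KO ESCs (difference 6.76, adjusted p = 0.000528). Gm22822, a predicted snRNA, was at 24.3 and 19.95 FPKM in WT EBs and listed at 0 in KO EBs and both ESC libraries (difference -4.52, adjusted p = 0.0284). Gm23651, a predicted microRNA locus, was at 19.5 and 25.0 FPKM in WT EBs and listed at 0 in the same other libraries (difference -4.53, adjusted p = 0.0284). All 4 are between 107 and 120 bases long. These loci were named after their values were seen. With 2 libraries in a group no search for outlying libraries was made.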

How the results depend on the processing

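Against 21 called rows, limma called 581 with equal weights, 613 with a replicate block, 36 with a pseudocount of 0.1, 8 without a filter on low values, 2 with the 4 EB libraries alone (1875 at unadjusted p under 0.05), and from 8 to 18 with 1 EB library left out. Against 323 rows past the study's thresholds there were 573 with the replicate block, 207 with a filter at FPKM of at least 5, and from 143 to 463 with 1 library left out. The log2 change of Strap was -2.19 with an adjusted p of 0.228 in the 4 EB libraries and of 0.0757 without a filter, and ran from -2.38 to -2.001 with 1 library left out, where it missed the threshold each time. The rescaling by FPKM outside rRNA-like, mitochondrial and short loci, and a pseudocount of 0.1 for the EB and ESC difference (3 rows against 4), were chosen after seeing the data.

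The replicate number was tried as a block although 2 pairs cannot show that numbers pair the libraries. Deviations from the group means of the libraries that share a number correlated at 0.415 across genes in EBs and at -0.03 in embryos. All 21 called rows remained with the block. With it, 5 neural progenitor genes (0 without) and 10 imprinted genes (5 without) were past the lower threshold. Across all the alternatives tried, not with the block alone, the median changed sign in 30 of 57 lists. Ribosomal proteins changed sign under quantile normalization, basement membrane without KO-1 and neural progenitors without KO-2. Limits are 2 libraries per group, a weight that assumes 1 variance for all EB libraries, an unknown sequencing depth, and a culture line that cannot be told apart from genotype.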

Other observations

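Genes of the Y chromosome were at or near 0 in all 4 EB libraries, with Ddx3y at most 0.0189 and Uty at most 0.0634 FPKM, and the row of Xist was at 0.736 and 1.32 FPKM in WT and 0.377 and 1.33 in KO. In the ESC libraries, which are grown on feeder cells, Ddx3y was at 1.15 and 0.665 and the row of Xist at 7.18 and 12.1.

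Hematopoietic cells were close to absent from all EB libraries. Summed FPKM of 4 red blood cell markers was 2.11 and 0.440 in WT and 0.206 and 0.104 in KO, and of 3 macrophage markers 2.62 and 0.631 in WT and 2.37 and 0.516 in KO. Laptm5, a lysosomal protein best known from blood cells, was at 2.78 and 9.27 FPKM in WT against 20.6 and 23.8 in KO, and at 69.1 and 84.7 in the ESC libraries. Aqp8, a water channel, was at 3.58 and 1.60 FPKM in WT and 19.8 and 10.4 in KO, and Hs3st1, a heparan sulfate sulfotransferase, at 7.11 and 5.21 against 39.6 and 13.4. Platr13, a noncoding RNA associated with ESCs, was listed at 0 in both WT EB libraries and at 2.36 and 2.76 FPKM in the KO ones, and at 0 in WT and 4.09 in KO ESCs.

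Hox genes had a median log2 difference of -0.06 over 28 tested, with 0 past a threshold, and tailbud genes 0.00 over 19 tested. Cell cycle genes of S and M phase had a median of 0.14 over 29 tested, again with 0 past a threshold.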
